A study of Mus musculus with 12 samples.

Results

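Binding of the transcription factors Zic1 and Zic2 was compared between the third and the first day of a mouse granule neuron culture, on either side of the step that stops cell division. The comparison holds 6 of the 12 libraries of the series, 3 from cells taken after 3 days in vitro (DIV3) and 3 from cells taken after 1 day (DIV1), chosen by their day alone. All come from primary cultures of cerebellar granule neurons, studied with CUT&RUN. There a nuclease tethered to the bound protein through its antibody cuts out the DNA beside it. One antibody, to the C terminus of Zic1/2, served all libraries, so the paralogues cannot be told apart. The labels give 1 uM cytosine arabinoside, a nucleoside that kills cells making DNA, on day 2 for every culture. The DIV3 cells had therefore had the drug for a day, whereas the DIV1 cells were taken before it. The day and the drug cannot be told apart, and neither can a change of binding within granule neurons and a loss of dividing cells from the dish. The series calls the 3 libraries of a day biological replicates. The labels name no strain, age or sex of the mice and no pooling, and no library made without the antibody was analysed here.

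Zic1 and Zic2 are zinc finger proteins, relatives of the Gli factors of the Hedgehog pathway, and they are made throughout the granule neuron lineage. Granule neuron progenitors divide in the outer layer of the young cerebellum under Sonic hedgehog from Purkinje cells. They then leave the cell cycle, extend axons, migrate inward along glial fibres and build synapses. Progenitors put into culture without added Sonic hedgehog go through the same exit in the dish.

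Zic1/2 peaks were as many at DIV3 as at DIV1, and no measure of the whole lists differed beyond what 3 against 3 libraries can show. The lists held 65596, 77170 and 75429 peaks at DIV3, against 65919, 84127 and 67904 at DIV1. The means were 72732 ± 6241 at DIV3 and 72650 ± 9989 at DIV1 (SD, n = 3 each; exact permutation p = 1.00, two-sided). Reads in peaks were 2.50 ± 0.516 M at DIV3 and 2.96 ± 0.285 M at DIV1 (SD, n = 3 each; exact permutation p = 0.300). Of 7 such measures the smallest exact p was 0.200, over 20 assignments that cannot go below 0.1, and the adjusted values lay between 0.420 and 1.00. On the Jaccard index (shared over covered bases) DIV3 lists were no closer to each other than to DIV1 lists, with 0.378 ± 0.0272 over the 3 DIV3 pairs, 0.441 ± 0.0238 over the 3 DIV1 pairs and 0.376 ± 0.0469 over the 9 pairs between days (mean ± SD). Same-day pairs as a whole exceeded pairs between days by 0.0336, with the smallest exact p that 10 partitions allow (0.1). DIV3 replicate 1 shared more with DIV1 replicates 1, 2 and 3 (0.459, 0.408 and 0.432) than with DIV3 replicates 2 and 3 (0.376 and 0.406). DIV3 replicates 2 and 3 came from 50-base reads, while DIV3 replicate 1 and the 3 DIV1 libraries came from 51-base reads. Those 2 libraries also held the fewest reads in peaks of the 6 (2.08 and 2.34 M) and the narrowest peaks (median 293 and 323 bp, against 344 to 443 bp in the other 4).

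The bases at 8 gene starts show promoters among the regions described below, although most regions that differed lay away from gene ends. Each is a stretch of 250 bases before a RefSeq transcription start (GRCm38.p6) that a region with a different signal at DIV3 covered at least in part. Notch1, Gli2 and Syn2 belong to the gene lists used below, and the other 5 were chosen after their values were seen. Capitals mark the 7-base cores CCTGCTG and CCCGCTG, known from Zic binding motifs, on either strand, and a sequence without capitals holds neither. The first 4 starts lay in regions lower at DIV3: Notch1, a receptor that keeps progenitors dividing, at chr2:26503823-26504072 (minus strand), Gli2, a Hedgehog effector, at chr1:119053620-119053869 (minus strand), the potassium channel Kcnh2 at chr5:24329592-24329841 (minus strand), and the neuronal transcription factor Npas3 at chr12:53248182-53248431 (plus strand).
Notch1: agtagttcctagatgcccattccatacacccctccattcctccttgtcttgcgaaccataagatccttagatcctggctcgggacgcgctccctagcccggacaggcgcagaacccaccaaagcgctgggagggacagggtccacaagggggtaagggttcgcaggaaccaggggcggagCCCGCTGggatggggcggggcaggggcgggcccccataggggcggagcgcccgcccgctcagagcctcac
Gli2: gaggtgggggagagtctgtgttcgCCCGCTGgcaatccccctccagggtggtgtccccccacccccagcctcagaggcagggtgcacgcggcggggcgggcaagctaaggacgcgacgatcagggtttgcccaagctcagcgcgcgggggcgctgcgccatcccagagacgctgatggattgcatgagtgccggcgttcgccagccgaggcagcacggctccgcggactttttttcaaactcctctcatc
Kcnh2: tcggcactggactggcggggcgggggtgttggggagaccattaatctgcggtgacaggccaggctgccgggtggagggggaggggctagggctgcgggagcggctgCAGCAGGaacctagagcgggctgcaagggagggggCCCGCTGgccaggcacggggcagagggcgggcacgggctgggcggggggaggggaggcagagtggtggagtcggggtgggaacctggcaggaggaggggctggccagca
Npas3: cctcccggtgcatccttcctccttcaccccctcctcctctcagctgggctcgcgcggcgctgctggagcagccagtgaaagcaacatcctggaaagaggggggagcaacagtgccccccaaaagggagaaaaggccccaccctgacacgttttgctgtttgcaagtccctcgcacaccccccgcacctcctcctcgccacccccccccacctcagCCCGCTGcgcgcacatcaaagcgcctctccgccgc

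The other 4 starts lay in regions higher at DIV3. They belong to the synaptic vesicle protein Syn2, at an internal start at chr6:115238744-115238993 (plus strand), to the chloride exporter Slc12a5 (KCC2), which sets the sign of the GABA response in mature neurons, at chr2:164967738-164967987 (plus strand), to the contactin Cntn5 at chr9:10904776-10905025 (minus strand), and to Fez1, a kinesin adaptor of axon growth, at chr9:36821641-36821890 (plus strand).
Syn2: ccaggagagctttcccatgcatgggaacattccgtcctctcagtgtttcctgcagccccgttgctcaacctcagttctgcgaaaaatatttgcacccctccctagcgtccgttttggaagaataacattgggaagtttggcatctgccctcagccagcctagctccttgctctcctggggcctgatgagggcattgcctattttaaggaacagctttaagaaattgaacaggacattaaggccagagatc
Slc12a5: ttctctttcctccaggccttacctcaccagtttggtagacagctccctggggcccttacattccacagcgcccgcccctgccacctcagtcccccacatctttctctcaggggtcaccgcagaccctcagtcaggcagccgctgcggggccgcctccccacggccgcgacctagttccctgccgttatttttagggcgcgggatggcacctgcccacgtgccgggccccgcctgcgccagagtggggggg
Cntn5: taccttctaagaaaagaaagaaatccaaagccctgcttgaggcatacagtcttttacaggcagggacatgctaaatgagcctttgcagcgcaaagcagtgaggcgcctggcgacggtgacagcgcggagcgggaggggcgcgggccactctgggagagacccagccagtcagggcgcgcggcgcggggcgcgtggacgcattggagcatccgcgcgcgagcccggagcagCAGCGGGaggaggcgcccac
Fez1: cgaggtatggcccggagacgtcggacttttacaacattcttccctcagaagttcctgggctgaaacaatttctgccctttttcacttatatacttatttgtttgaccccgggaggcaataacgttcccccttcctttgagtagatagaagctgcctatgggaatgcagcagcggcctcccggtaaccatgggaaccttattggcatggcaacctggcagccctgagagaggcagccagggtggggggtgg

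The signal at these promoters is given by replicate. Their regions were called from these same 6 libraries, so days that do not overlap follow largely from that choice, here and below. Reads are the total signal of the peaks in a region divided by the read length. The Notch1 region held 13, 32 and 31 reads at DIV3, against 289, 271 and 115 at DIV1. The Gli2 region held 102, 37 and 55 reads at DIV3, against 212, 183 and 143 at DIV1. The Slc12a5 region held 126, 75 and 141 reads at DIV3, against 24, 29 and 28 at DIV1. In none of the 3 did the days overlap.

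The Kcnh2 region had 33, 42 and 24 reads at DIV3, against 191, 101 and 163 at DIV1. The Npas3 region had 28, 11 and 23 at DIV3, against 77, 80 and 87 at DIV1. Both were low in every DIV3 library. The Cntn5 region had 89, 53 and 73 reads at DIV3, against 23, 28 and 27 at DIV1. The Fez1 region had 106, 57 and 66 at DIV3, against 31, 35 and 18 at DIV1, so both were high in every DIV3 library.

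By maximum signal Syn2 and Fez1 passed as well (limma adjusted p = 0.0286 and 0.0381), and the other 6 did not (limma adjusted p = 0.0866 to 0.654). Both cores stood in promoters of either direction. In the table of RefSeq promoters, which holds 32851 starts and covers 79.9% of the 21887 protein-coding genes, CCTGCTG stood in 10.5% and CCCGCTG in 5.65% of the windows (250 bases before to 50 after the start, both strands). Among the promoters in regions that were higher by total signal at DIV3, 5 of 40 held CCTGCTG (12.5%) and 4 held CCCGCTG (10.0%). Among those in regions that were lower, 16 of 90 held CCTGCTG (17.8%) and 15 held CCCGCTG (16.7%). In promoters under any region with a peak in all 6 libraries, the shares were 9.80% and 10.4%. Promoters of 1 gene often overlap, so these counts are a description.

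Presence of a peak was compared first. The peaks of the 6 lists, merged where they overlapped, gave 166233 regions, and 93934 of them came from a single library. A peak in all 6 libraries was found in 23117 regions (13.9%), which were broad (median 1318 bp) and in 40.3% of cases lay within 1 kb of an end of a protein-coding gene. The table of genes used here gives the span of each gene but no exons, so either end stands in for the promoter.

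A peak in every DIV3 and no DIV1 library was found in 1242 regions, which is 0.747% of all. The reverse, a peak in every DIV1 and no DIV3 library, was found in 2125 regions, or 1.28%. An exact test of a single region cannot go below p = 0.1 with 3 against 3 libraries, so these are counts without calls. Of the regions of DIV3 alone, 3.22% were near a gene end and 52.6% between genes. Of the regions of DIV1 alone, 15.6% were near a gene end and 35.4% between genes, beside 12.4 and 43.7% of all merged regions. The part of read length in these shares was not tested. Both kinds were weak beside the regions with a peak in all 6 libraries, with medians of 20.2 reads at DIV3 and 21.3 reads at DIV1. Regions of all 6 libraries had medians of 59.3 reads at DIV3 and 69.7 at DIV1. All merged regions, where they held reads, had 5.33 at DIV3 and 7.33 at DIV1. The counts depended on each library: without DIV3 replicates 1, 2 and 3 there were 3219, 2656 and 2677 regions of DIV3 alone, and without DIV1 replicate 2 there were 1896. Without DIV3 replicate 1 there were 4179 regions of DIV1 alone, and without DIV1 replicates 1, 2 and 3 there were 3978, 3928 and 4418.

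The 6 strongest regions of DIV1 alone lay at or near Racgap1, Btg2, Lhx1, Efs, Eln and Pcbd1. Beside Racgap1, which codes for a part of the machine that parts daughter cells, a region 4738 bp from the gene (chr15:99614287-99615758) held 69, 91 and 87 reads in the DIV1 libraries and none at DIV3. Beside Btg2, an inhibitor of proliferation made in cells about to become neurons, a region 10825 bp away (chr1:134062744-134064040) held 114, 64 and 71 reads at DIV1 and none at DIV3. A region nearest to Lhx1, a LIM homeodomain factor of Purkinje cells and other neurons (chr11:84597429-84598661), held 114, 74 and 76 reads at DIV1 and none at DIV3 or in any later library. The other 3 strongest lay at Efs, an adaptor of Src kinases, at Eln, which codes for elastin, and near Pcbd1, with 60 to 135 reads per DIV1 library.

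The strongest regions of DIV3 alone were mostly distant from genes. A region in Adcy8, a calcium-stimulated adenylyl cyclase of neurons (chr15:64829613-64830872), held 82, 70 and 76 reads at DIV3, no read in a DIV1 peak, and a peak in all 6 DIV5 and DIV7 libraries. A region in Sorcs3, a sorting receptor of the synapse (chr19:48503701-48505322), held 90, 70 and 47 reads at DIV3, and it had a peak in 5 of the 6 later libraries. Those nearest to Cfap20dc, Fam110b, Dsc3 and Lcorl lay 23864 to 528532 bp from these genes, with 58 to 101 reads per DIV3 library.

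Signal was then compared in the 23117 regions with a peak in all 6 libraries. The authors' lists give for each peak the summed coverage (total signal) and the highest coverage (maximum signal), neither scaled to depth. Each was therefore ranked within its library, and differences are given in normal scores of these ranks. A positive value means a higher place among the 23117 regions at DIV3, not more binding in absolute terms. Ranks were closest among the DIV1 libraries. Across regions, which are not independent, Spearman's rho of total signal was 0.781 to 0.817 among DIV3 libraries, 0.847 to 0.868 among DIV1 libraries and 0.665 to 0.797 between days. The highest value between days, of DIV3 replicate 1 with DIV1 replicate 1, was above those of DIV3 replicate 2 with the other DIV3 libraries (0.781 and 0.794). By maximum signal rho was 0.675 to 0.698 among DIV3 libraries, 0.703 to 0.725 among DIV1 libraries and 0.563 to 0.648 between days.

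By maximum signal 108 regions differed (0.467%; limma with Benjamini-Hochberg adjustment, threshold 0.05). Of these 75 were higher (0.324%) and 33 lower (0.143%) at DIV3. By total signal 605 regions differed (2.62%), 317 of them higher (1.37%) and 288 lower (1.25%). Both measures called the same way 49 higher and 22 lower regions. At an unadjusted p under 0.05 there were 3341 regions (14.5%) by maximum signal, 7.48% higher and 6.97% lower, and 4771 (20.6%) by total signal, 10.3% higher and 10.3% lower.

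These calls were fragile, and the test found few shifts of known size. In simulated data 100 of the 23117 regions were shifted by 1 normal score and 100 by 2, with the rest not shifted. By maximum signal the test recovered 0 of 100 shifts of 1 and 1 of 100 shifts of 2. By total signal it recovered 14 and 63 of 100. The adjustment is stricter where so few regions differ, so these shares need not hold for the real data. A region without a call is therefore not shown to be unchanged. With the read length as a term none of the 23117 regions passed by either measure (2027 by maximum and 2601 by total signal at an unadjusted p under 0.05). No DIV1 library has 50-base reads, so read length and day cannot be fully told apart. In that fit the called regions had a median size of 2.06 by maximum signal, beside 2.08 without the term. By total signal it was 1.31, beside 1.40. By maximum signal 3, 0 and 0 regions passed without DIV3 replicates 1, 2 and 3, and 5, 0 and 0 without DIV1 replicates 1, 2 and 3. By total signal 48 passed without DIV3 replicate 1 and 0 without any of the other 5. In the 51-base libraries alone, DIV3 replicate 1 lay beyond all 3 DIV1 libraries, in the direction called, at each of the 108 regions by maximum and each of the 605 by total signal. Over all regions it was above the 3 DIV1 libraries at 27.7% and below them at 26.7% by maximum signal. That library is one of those that made the calls, so this is a description.

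**Figure D1:**
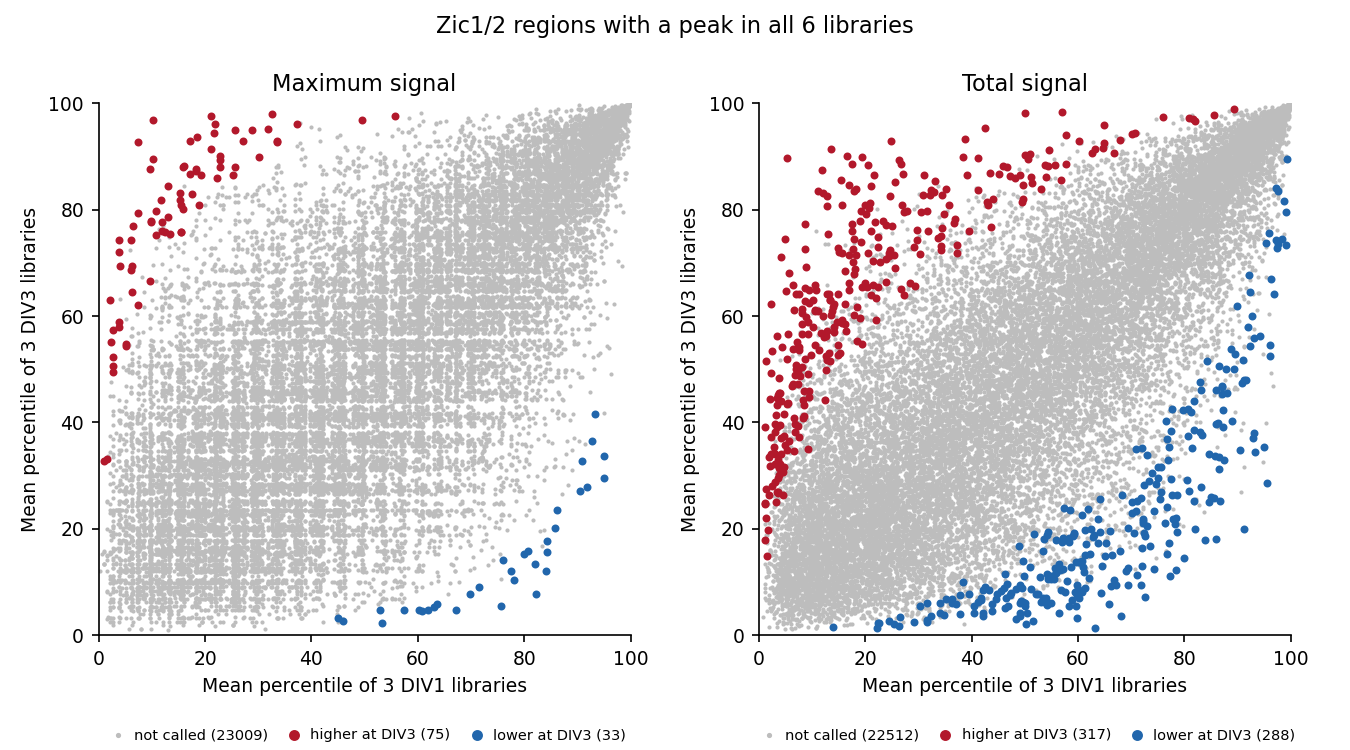
Mean percentile of each of the 23117 shared regions in the 3 DIV3 libraries (vertical axis) and in the 3 DIV1 libraries (horizontal axis), by maximum signal (left) and total signal (right). Red points are the 75 and 317 regions that limma called higher at DIV3, blue points the 33 and 288 called lower, and the bands on the left are ties of the maximum signal.

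A few regions at genes of dividing progenitors were among those lower at DIV3. Of 43 regions at genes of the granule progenitor list 1 was higher and 3 were lower by total signal, and of 38 at Hedgehog genes 0 were higher and 1 was lower, beside 1.37% higher and 1.25% lower over all regions. By maximum signal 0 were called in either list. Such small counts say nothing particular about these lists. Regions called at genes of the lists were named after their values were seen, beside those with the largest differences. The Notch1 region (chr2:26499807-26504137) covered the start of the gene. Its difference by total signal was -2.70 ± 0.53 (SE; limma adjusted p = 0.0471), and it did not pass by maximum signal (limma adjusted p = 0.186). A region at the start of Gli2 (chr1:119051794-119054499) differed by -1.32 ± 0.23 by total signal (limma adjusted p = 0.0390) and by -0.60 ± 0.48 by maximum signal, which did not pass (limma adjusted p = 0.621). Hedgehog signalling, which Gli2 carries out, is the main mitogen of these progenitors.

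In Ccnd2, the cyclin D2 gene of granule progenitors, a region (chr6:127130167-127131441) held 24, 18 and 13 reads at DIV3, against 76, 64 and 55 at DIV1. It differed by -1.30 ± 0.22 (limma adjusted p = 0.0342). Within 5 kb of Cdc20, an activator of the anaphase-promoting complex, a region at the neighbouring gene Elovl1 (chr4:118427554-118428936) held 43, 29 and 45 reads at DIV3, against 113 in DIV1 replicate 1 and only slightly fewer in the other DIV1 libraries (-1.18 ± 0.22, limma adjusted p = 0.0424). In Tead1, a partner of the growth regulator Yap1, 2 regions were lower, at -1.53 ± 0.21 and -1.47 ± 0.18 (limma adjusted p = 0.0291 and 0.0288). The first (chr7:112779448-112780766) held 40, 17 and 15 reads at DIV3, against 100, 82 and 94 at DIV1.

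A region 329811 bp from Mki67, the gene of the proliferation marker Ki-67 (chr7:136046261-136047545), held 12, 12 and 11 reads at DIV3, against 85, 44 and 57 at DIV1. It was lower by both measures, at -2.45 ± 0.46 by maximum signal (limma adjusted p = 0.0411), and held no peak in the DIV5 libraries or DIV7 replicate 1, and 17 and 21 reads in DIV7 replicates 2 and 3. Being nearest, at such a distance, does not tie it to the gene. At Clspn, a replication checkpoint gene named after its values were seen, the maximum signal at the gene start was lower (limma adjusted p = 0.0381). Its reads were 61, 14 and 32 at DIV3 and 61, 63 and 62 at DIV1, so the days met in 1 library, and the total signal did not pass (limma adjusted p = 0.262).

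Notch2, another Notch receptor of the progenitor list, went the other way. A region in the gene (chr3:98034367-98036042) held 157, 107 and 141 reads at DIV3, against 85, 78 and 66 at DIV1, with a difference of 1.09 ± 0.19 (limma adjusted p = 0.0383).

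Genes of axon guidance and migration had regions of both kinds, with 1 of 89 higher and 2 lower by total signal and 1 higher and 1 lower by maximum signal. These counts are near the shares over all regions (1.37% higher and 1.25% lower by total signal), so the regions are given as single sites. In Ntn1, which codes for the guidance cue netrin-1, a region (chr11:68232753-68234464) held 53, 35 and 42 reads at DIV3, against 229, 143 and 155 at DIV1. It stood at percentile 29.5 ± 16.8 of maximum signal at DIV3 and 94.9 ± 1.31 at DIV1, a difference of -2.23 ± 0.37 (limma adjusted p = 0.0381). In Ephb2, an ephrin receptor, a region (chr4:136700805-136705060) held 160, 68 and 68 reads at DIV3, against 371, 209 and 251 at DIV1 (difference by total signal -1.37 ± 0.27, limma adjusted p = 0.0445). Both genes thus had lower regions at DIV3, with no overlap of the days.

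Astn1 and Astn2 code for astrotactins, which act in the movement of granule neurons along glia. In Astn1 a region (chr1:158516241-158517430) held 92, 86 and 96 reads at DIV3, against 64, 38 and 36 at DIV1 (difference by maximum signal 1.96 ± 0.38, limma adjusted p = 0.0464). A region 145626 bp from Astn2 (chr4:66550163-66551981) held 176, 141 and 134 reads at DIV3, against 49, 12 and 25 at DIV1. It had the largest rise by maximum signal among the 75, but being nearest at such a distance does not tie it to Astn2. Its mean percentile was 96.8 ± 0.703 at DIV3 and 10.1 ± 9.40 at DIV1 (SD, n = 3 each), a difference of 3.25 ± 0.37 (limma adjusted p = 0.0132). In Robo1, a receptor for Slit cues, a region (chr16:72794665-72795732) held 46, 34 and 45 reads at DIV3, against 16, 10 and 13 at DIV1.

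Of 78 regions at genes of the mature granule neuron list 2 were higher and 0 were lower by total signal. At early postmitotic genes 1 of 97 regions was higher, and at BAF genes 1 of 61, beside 1.37% over all regions, so these too are single sites. The Syn2 region (chr6:115237627-115239118) held 145, 91 and 128 reads at DIV3, against 48, 44 and 19 at DIV1, with a difference by maximum signal of 2.60 ± 0.35 (limma adjusted p = 0.0286). In Stmn2, a tubulin-binding protein of growing axons, a region (chr3:8549428-8550683) held 139, 101 and 103 reads at DIV3, against 60, 38 and 58 at DIV1 (by total signal, limma adjusted p = 0.0311). In Grin2a, the NMDA receptor subunit that takes over in mature granule neurons, a region (chr16:9752628-9753794) held 115, 55 and 77 reads at DIV3, against 50, 38 and 33 at DIV1 (1.14 ± 0.19, limma adjusted p = 0.0339). The last did not pass by maximum signal (limma adjusted p = 0.776). At Smarcd3, a subunit of neuronal BAF chromatin remodellers, a region at the gene end (chr5:24622460-24625232) held 366, 260 and 254 reads at DIV3, against 174, 154 and 166 at DIV1 (1.09 ± 0.18, limma adjusted p = 0.0339). By maximum signal its difference was 0.34 ± 0.35 and did not pass (limma adjusted p = 0.725).

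**Figure D2:**
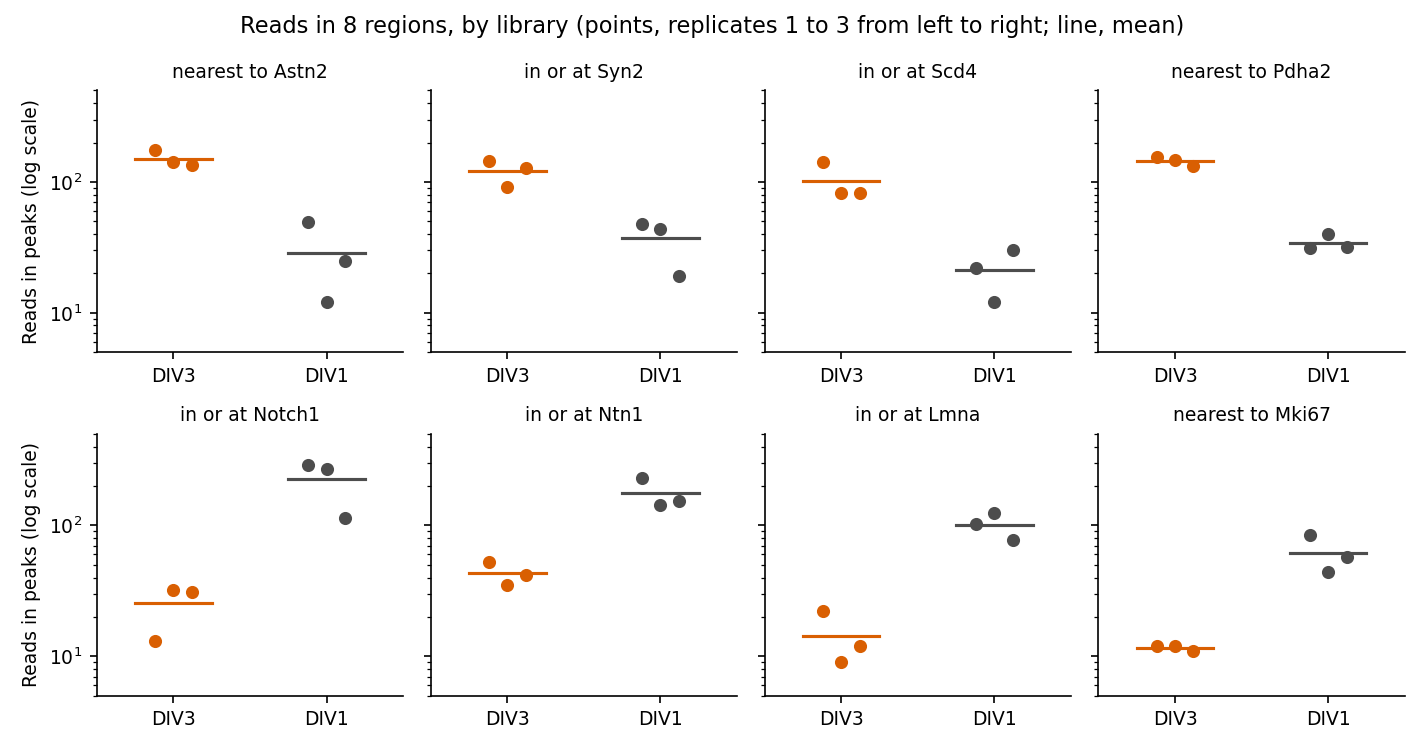
Reads in peaks (logarithmic axis) in 8 regions, for the 3 DIV3 libraries (orange) and the 3 DIV1 libraries (grey), with lines at the means. The upper row shows regions called higher at DIV3, the lower row regions called lower, and the days do not overlap in any of the 8. The region nearest to Astn2, 145626 bp away, held 176, 141 and 134 reads at DIV3, against 49, 12 and 25 at DIV1.

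Of the 10 regions with the largest rise by maximum signal, Ggact and Syn2 held theirs within the gene and Scd4 at a gene end, and the other 7 lay between genes. Scd4, a desaturase of fatty acids, had 141, 83 and 83 reads at its end (chr19:44332537-44333884) at DIV3, against 22, 12 and 30 at DIV1. The 7 between genes lay nearest to Astn2, Pdha2, Oprm1, Dhrs2, Oxsm, Gm815 and Abhd2, at 30231 to 239013 bp. Oprm1 codes for the mu opioid receptor, and its neighbour held 133, 88 and 102 reads at DIV3, against 58, 30 and 25 at DIV1. Over the 10, differences ran from 2.52 to 3.25, and reads from 81 to 178 per DIV3 library and from 12 to 58 per DIV1 library.

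Of the 10 regions with the largest fall by maximum signal, 6 lay inside their gene. Cacng2 codes for stargazin, which brings AMPA receptors to the granule neuron surface, and its region (chr15:78078174-78079760) held 17, 25 and 10 reads at DIV3, against 100 and 87 in DIV1 replicates 1 and 3 and more in DIV1 replicate 2. In Lmna, the gene of lamin A of the nuclear envelope, a region (chr3:88492253-88493560) held 22, 9 and 12 reads at DIV3, against 102, 125 and 77 at DIV1. In Ngfr, the p75 neurotrophin receptor of dividing granule progenitors, a region (chr11:95574239-95575872) held 55, 37 and 25 reads at DIV3, against 133, 117 and 93 at DIV1. The others lay in Rgs12, Sorcs2 and Ntn1, at the end of Dis3l2, and near Mki67, Gm7827 and Ano5.

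By total signal the next largest rises lay near B3galt1, Trit1 and Bcl2l11 and in Med26 and Marchf3. The Bcl2l11 neighbour, 204494 bp from this gene of the pro-apoptotic protein BIM, held 106, 70 and 52 reads at DIV3, against 14, 13 and 13 at DIV1. The next largest falls lay at Notch1 and Rom1, in Gse1 and near Baiap2 and Aqp6. The Gse1 region (chr8:120291326-120295128) held 75, 15 and 33 reads at DIV3, against 248, 175 and 260 at DIV1. Over these 10 the sizes ran from 2.30 to 2.55 upward and from -2.70 to -2.12 downward.

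Each of these 30 regions with the largest differences lost its call when DIV1 replicate 2 or DIV1 replicate 3 was left out, and so did the 19 genes called by peaks per gene that had the largest differences or came from the lists. Of these 49, each kept its direction in every setting that gave it a value. Not every setting covered all of them, and most reuse the values by which they were chosen, so this is a description.

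Regions that were higher at DIV3 lay at gene ends less often than those that were lower, as a description without a test. By total signal 8.52% of the higher and 27.1% of the lower regions were within 1 kb of a gene end, beside 40.3% of the 23117. Between genes lay 45.4% of the higher and 23.3% of the lower regions. By maximum signal the shares at gene ends were 5.33% of the higher and 27.3% of the lower regions. The 50-base DIV3 libraries also had more of all their peaks between genes (42.1 and 39.7%) than DIV3 replicate 1 (35.3%) and the DIV1 libraries (33.8 to 37.1%). The part of read length in the location of the called regions was not tested.

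**Figure D3:**
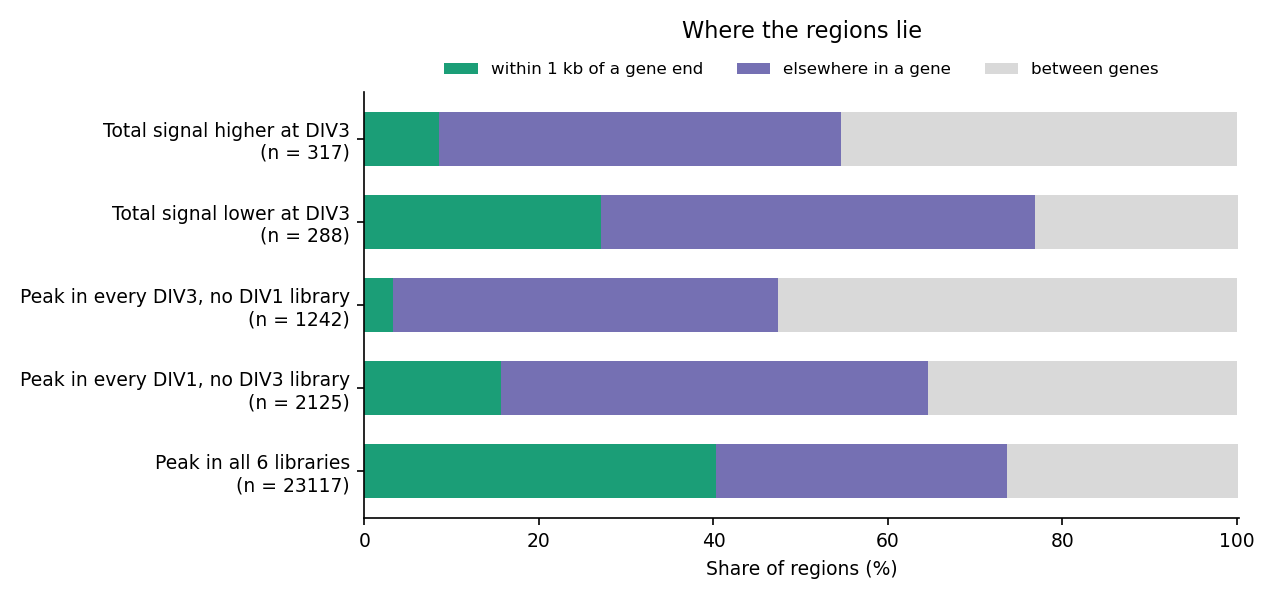
Share of regions (horizontal axis, percent) within 1 kb of an end of a protein-coding gene, elsewhere in a gene, and between genes, for 5 sets of regions. Regions higher at DIV3 or of DIV3 alone have the shortest green bars (8.52 and 3.22%), against 40.3% over regions with a peak in all 6 libraries.

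Peaks were then counted per protein-coding gene, over the gene span and 5 kb on each side, per 10000 peaks of the library. Of 21887 genes, 9008 had at least 12 peaks over the 6 libraries and were tested. A gene with few peaks on 1 day could reach this minimum through the other day, and several genes named below as higher or lower did so. By limma with adjustment 113 genes differed (1.25%), 30 of them higher (0.333%) and 83 lower (0.921%) at DIV3. At an unadjusted p under 0.05 there were 1523 (16.9%). Differences are on the scale of log2(peaks per 10000 + 0.5), which understates changes of genes with few peaks.

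The 30 genes with more Zic1/2 peaks at DIV3 were long. Their median length was 359 kb, and 83.3% were longer than 100 kb. Over all 9008 tested genes the median was 31.5 kb and 22.1% were longer. Negr1, an adhesion protein of the IgLON family that acts in neurite growth, had 20, 23 and 22 peaks at DIV3, against 9, 7 and 4 at DIV1. That is 2.98 ± 0.0662 and 0.929 ± 0.397 peaks per 10000 (SD, n = 3 each), a difference of 1.32 ± 0.21 (SE; limma adjusted p = 0.0185).

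Among the 8 largest rises were receptors and a channel partner. Gabrb2, a subunit of GABA-A receptors, had 6, 8 and 7 peaks at DIV3, against 2, 1 and 0 at DIV1 (1.21 ± 0.19, limma adjusted p = 0.0185). Fgf14, a partner of sodium channels that keeps granule neurons excitable, had 14, 17 and 21 peaks at DIV3, against 4, 8 and 5 at DIV1 (1.19 ± 0.19, limma adjusted p = 0.0185). Grm5, a metabotropic glutamate receptor, had 7, 13 and 8 peaks at DIV3, against 2, 2 and 2 at DIV1. In all 3 genes every DIV3 library was above every DIV1 library, which follows largely from calling them in these same libraries. Gabrb2 and Grm5 reached the minimum for a test only with their DIV3 peaks.

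The scaffold Magi2 had 15, 25 and 17 peaks at DIV3, against 7, 6 and 6 at DIV1. The adhesion molecules Cdh18 (14, 15 and 11 at DIV3, against 5, 6 and 1 at DIV1) and Chl1 (9, 13 and 11 at DIV3, against 4, 1 and 5 at DIV1) also rose. Mctp1, a calcium-binding membrane protein of synapses, had 7, 10 and 9 peaks at DIV3, against 2, 2 and 2 at DIV1. Mctp1 and Chl1 too reached the minimum only with their DIV3 peaks. Differences over these 8 largest rises lay between 1.08 and 1.32.

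The 83 genes with fewer peaks at DIV3 had a median length of 35 kb, and 15.7% were longer than 100 kb. Pax7, a paired-box factor of dividing progenitors in the developing nervous system and muscle, had 2, 3 and 1 peaks at DIV3, against 9, 8 and 9 at DIV1 (-1.15 ± 0.19, limma adjusted p = 0.0188). Pak6, a p21-activated kinase, had 0, 1 and 0 peaks at DIV3, against 4, 8 and 6 at DIV1 (-1.27 ± 0.17, limma adjusted p = 0.0109). Islr, a short gene of 2.99 kb, had 2, 0 and 0 peaks at DIV3, against 7, 6 and 6 at DIV1. All 3 were lower in every DIV3 library. By reads in these peaks, scaled to the reads in peaks of the library, Pax7 passed as well (limma adjusted p = 0.0127). Pak6 and Islr did not (limma adjusted p = 0.0717 and 0.0616). All 3 genes reached the minimum for a test through DIV1.

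Flrt1, an adhesion molecule of axons and synapses, had 12, 4 and 10 peaks at DIV3, against 23, 23 and 29 at DIV1, and it lies inside Macrod1, which was called too. Rab11fip4 had 2, 5 and 6 peaks at DIV3, against 13, 18 and 12 at DIV1, and Ppp1r16b had 2, 3 and 3 at DIV3, against 7, 15 and 10 at DIV1. Differences over the 8 largest falls lay between -1.28 and -1.15.

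Further falls are named after their values were seen. Nkx2-2, Tbx2 and Prdm13 code for transcription factors of tissue patterning. Nkx2-2 had 2, 0 and 0 peaks at DIV3, against 6, 5 and 4 at DIV1. Tbx2 had 1, 0 and 2 at DIV3, against 7, 8 and 4 at DIV1. Prdm13 had 1, 0 and 0 at DIV3, against 6, 2 and 5 at DIV1. The transforming growth factor beta receptor Tgfbr2 had 1, 0 and 1 at DIV3, against 4, 7 and 6 at DIV1. By scaled reads none of these further genes passed (limma adjusted p = 0.0798 to 0.204), and they too reached the minimum through DIV1.

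With the read length as a term no gene passed (804 at an unadjusted p under 0.05). The number called was 305, 23 and 32 without DIV3 replicates 1, 2 and 3, and 11, 0 and 0 without DIV1 replicates 1, 2 and 3. In DIV3 replicate 1, which has 51-base reads like the DIV1 libraries, each of the 30 genes was above and each of the 83 below all 3 DIV1 libraries. Over all 9008 genes these shares were 32.2 and 21.2%. That library is one of those that made the calls, so this too is a description and does not bear on the loss of calls with read length.

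**Figure D4:**
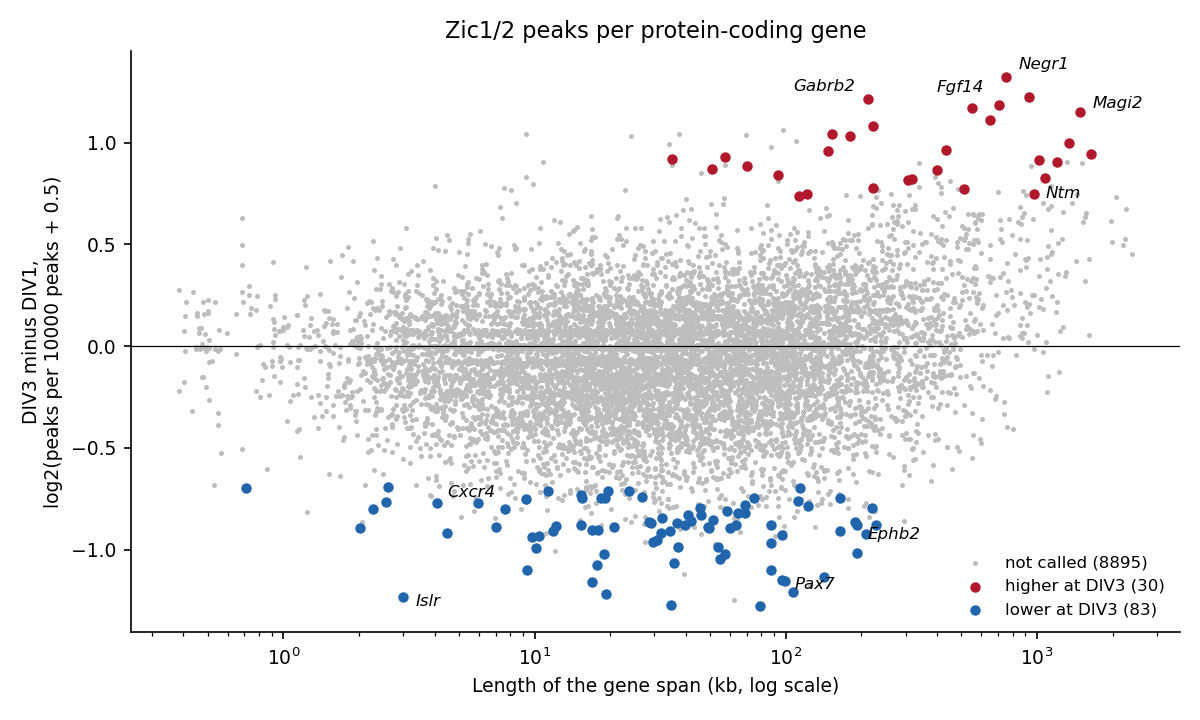
Difference between DIV3 and DIV1 in log2(peaks per 10000 peaks + 0.5) for 9008 protein-coding genes (vertical axis), by the length of the gene (horizontal axis, kb, logarithmic). The 30 genes called higher at DIV3 (red) lie mostly at the right, with a median of 359 kb, and the 83 called lower (blue) have a median of 35 kb.

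No member of 5 cell cycle lists passed the test by its number of Zic1/2 peaks. The lists held cyclins and their kinases, cell cycle brakes, and genes of DNA replication, mitosis and the DNA damage checkpoint. Of their 82 members 35 had enough peaks for a test, and 0 were called either way (limma). Outside the lists Cit, a kinase of cytokinesis named after its values were seen, was lower, with 2, 2 and 1 peaks at DIV3, against 5, 7 and 4 at DIV1 (limma adjusted p = 0.0483). At an unadjusted p under 0.05 the lists had 1 higher and 5 lower, beside 4.97% higher and 11.9% lower over all tested genes. The medians of the lists lay between -0.23 (cyclins and kinases) and 0.02 (checkpoint), beside -0.05 over all genes.

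The members with the smallest p of each list, and a few well-known ones chosen after their values were seen, show the levels. Cdt1, a licensing factor of replication, had 3, 3 and 2 peaks at DIV3, against 7, 12 and 5 at DIV1 (limma adjusted p = 0.0519). E2f2, an activator of S-phase genes, had 1, 1 and 1 at DIV3, against 6, 5 and 2 at DIV1 (limma adjusted p = 0.0681). Ccnd2 had 8, 10 and 9 at DIV3, against 13, 16 and 13 at DIV1 (limma adjusted p = 0.172). These 3 genes had fewer peaks in every DIV3 library without passing. Ccnd1, the other D-type cyclin of progenitors, had 9, 8 and 5 at DIV3, against 11, 11 and 6 at DIV1, so its days overlapped. Cdkn1a, the inhibitor p21, had 3, 2 and 1 at DIV3, against 5, 4 and 3 at DIV1, and Cenpf, a kinetochore protein, had 7, 10 and 6 at DIV3, against 3, 4 and 6 at DIV1. Both met in 1 value. Cdkn1b, the inhibitor p27 that accumulates at exit, had 5, 4 and 5 at DIV3, against 6, 5 and 5 at DIV1. Mki67 itself had 1 or 2 peaks in each library of both days and was under the minimum for a test.

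Region by region, the 5 lists held 107 of the 23117 regions within 5 kb of their genes. By total signal 0 of these were higher and 2 lower at DIV3, those of Ccnd2 and beside Cdc20, and by maximum signal 0 were called either way. That is close to the 1.25% lower over all regions.

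Progenitor and Hedgehog genes had single sites that differed, and their lists were not tested as wholes. Of 17 tested granule progenitor factors 0 were called by peaks per gene (limma; 1 higher and 4 lower at an unadjusted p under 0.05, beside 4.97 and 11.9% over all tested genes), with a median of -0.25 beside -0.05. Tead1 had 19, 17 and 21 peaks at DIV3, against 30, 32 and 23 at DIV1 (limma adjusted p = 0.186), and Notch2 had 26, 16 and 15 at DIV3, against 12, 10 and 10 at DIV1 (limma adjusted p = 0.196). Atoh1, which keeps progenitors dividing, had 4, 2 and 4 peaks at DIV3, against 4, 6 and 5 at DIV1. Of 11 tested Hedgehog genes 0 were called (limma; 0 higher and 1 lower unadjusted). Gli2 had 28, 19 and 23 peaks at DIV3, against 34, 41 and 37 at DIV1 (limma adjusted p = 0.118). The receptor Ptch1 had 13, 17 and 12 peaks at DIV3, against 15, 13 and 14 at DIV1.

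Among later genes of the lineage, the list of mature granule neuron genes had 2 of 25 tested members higher, Fgf14 and the potassium channel Kcnd2, and 0 lower, beside 0.333% higher and 0.921% lower over all tested genes, with a median of 0.10. Kcnd2 had 5, 9 and 6 peaks at DIV3, against 2, 3 and 2 at DIV1 (0.77 ± 0.17, limma adjusted p = 0.0483). Both genes are long (703 and 514 kb), like most genes called higher, of which 83.3% exceed 100 kb. The part of gene length in the counts of this list was not tested. At an unadjusted p under 0.05 the list had 6 higher and 0 lower, beside 4.97 and 11.9% over all tested genes. Gabra6, the GABA-A receptor subunit that marks mature granule neurons, had 2, 3 and 3 peaks at DIV3 and none in any DIV1 library, too few for a test.

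The list of migration and guidance had 2 of 22 tested members lower and 0 higher, beside 0.921% lower and 0.333% higher over all tested genes. At an unadjusted p under 0.05 it had 1 higher and 4 lower. Cxcr4, the receptor that holds progenitors in the outer layer, had 1, 2 and 2 peaks at DIV3, against 5, 6 and 5 at DIV1 (-0.77 ± 0.16, limma adjusted p = 0.0415). Ephb2 had 26, 17 and 21 peaks at DIV3, against 38, 45 and 41 at DIV1 (-0.87 ± 0.19, limma adjusted p = 0.0483). Early postmitotic genes, apoptosis genes, BAF subunits, chromatin enzymes and housekeeping genes had 0 members called (limma; 0 to 1 higher and 1 to 3 lower unadjusted), with medians between -0.04 and 0.05. In the apoptosis list Bcl2l11 had 3, 3 and 2 peaks at DIV3, against 9, 8 and 5 at DIV1 (limma adjusted p = 0.0579).

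No Zic gene passed for its own peaks. Zic1 had 10, 6 and 7 peaks at DIV3, against 6, 6 and 6 at DIV1, and Zic2 had 6, 3 and 5 at DIV3, against 8, 5 and 9 at DIV1. Of the 5 Zic genes 0 were called (limma adjusted p = 0.285 to 0.999; 1 lower unadjusted), and of 12 regions at them 0 were called by either measure.

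Markers of other cell types carried Zic1/2 peaks too, and the sums of 2 of their lists were lower in every DIV3 library than in any DIV1 library. For 10 oligodendrocyte lineage genes the summed peaks per 10000 were 2.85 to 4.27 at DIV3, against 6.37 to 6.78 at DIV1. For 11 microglial and vascular genes they were 1.06 to 1.56 at DIV3, against 2.38 to 3.09 at DIV1. This was not particular to markers of other cells, since the DNA replication list separated too (5.30 to 6.40 at DIV3, against 6.92 to 7.74 at DIV1). Sums for astrocyte and Bergmann glia genes (3.37 to 4.51 at DIV3, against 3.24 to 5.01 at DIV1) and for Purkinje and interneuron genes (5.83 to 8.54 at DIV3, against 8.20 to 10.9 at DIV1) overlapped. Of 26 tested members of the 4 lists 0 were called (limma). At an unadjusted p under 0.05 there were 0 higher and 9 lower, beside 4.97 and 11.9% over all tested genes. Mbp, of the myelin sheath, had 9, 9 and 5 peaks at DIV3, against 14, 19 and 15 at DIV1 (limma adjusted p = 0.0638). Sox10, a factor of the oligodendrocyte lineage, had none at DIV3 and 2, 2 and 0 at DIV1, and Aqp4, of astrocytes, had 0, 1 and 0 at DIV3 and none at DIV1. At Olig2, a factor of oligodendrocyte progenitors, a region beside the gene (chr16:91222049-91223801) held 15, 9 and 21 reads at DIV3, against 76, 85 and 67 at DIV1 (by total signal -1.87 ± 0.31, limma adjusted p = 0.0342). In Rora, a nuclear receptor of Purkinje cells, a region (chr9:68819820-68821554) held 175, 95 and 115 reads at DIV3, against 83, 58 and 60 at DIV1 (1.17 ± 0.18, limma adjusted p = 0.0311). These were the 2 regions called of the 38 at genes of the 4 lists. Granule neuron genes had peaks in all libraries, with 15, 13 and 19 at Pax6 at DIV3, against 19, 17 and 15 at DIV1. A peak near a gene is no measure of its expression, and the part of other cells in the called regions was not tested.

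Regions of DIV3 alone were found again on later days of culture more often than those of DIV1 alone, in libraries that entered none of these calls. Of the 1242 regions of DIV3 alone, 66.9, 56.8 and 39.0% held a peak in DIV5 replicates 1, 2 and 3, and 27.8, 56.0 and 22% in DIV7 replicates 1, 2 and 3. Of the 2125 regions of DIV1 alone, 24.2, 15.2 and 15.1% did at DIV5, and 9.27, 28.1 and 19.6% at DIV7. The share was higher for the regions of DIV3 alone in all 6 libraries, although in DIV7 replicate 3 by little. Replicates 1 and 2 of DIV5 and DIV7 have 50-base reads, as do DIV3 replicates 2 and 3 but no DIV1 library. How far read length enters these shares was not tested.

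The regions called by maximum signal were placed among all 23117 shared regions, whose median percentile is 50.0, by the maximum signal of the later libraries. Those higher at DIV3 had median percentiles of 67.0, 68.7 and 60.4 in the DIV5 libraries and 55.5, 74.9 and 36.1 in the DIV7 libraries. Those lower at DIV3 had 13.1, 14.5 and 19.6 at DIV5 and 15.9, 18.9 and 36.1 at DIV7. In DIV7 replicate 3 the sets thus had the same median, a tied value under the 50.0 of all regions. In that library 58.7% of the regions higher and 54.5% of those lower by maximum signal held a peak, beside 69.3% of all shared regions. DIV5 replicate 3 and DIV7 replicate 3 are the 51-base libraries of those days, and they held 1.67 and 1.55 M reads in peaks.

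**Figure D5:**
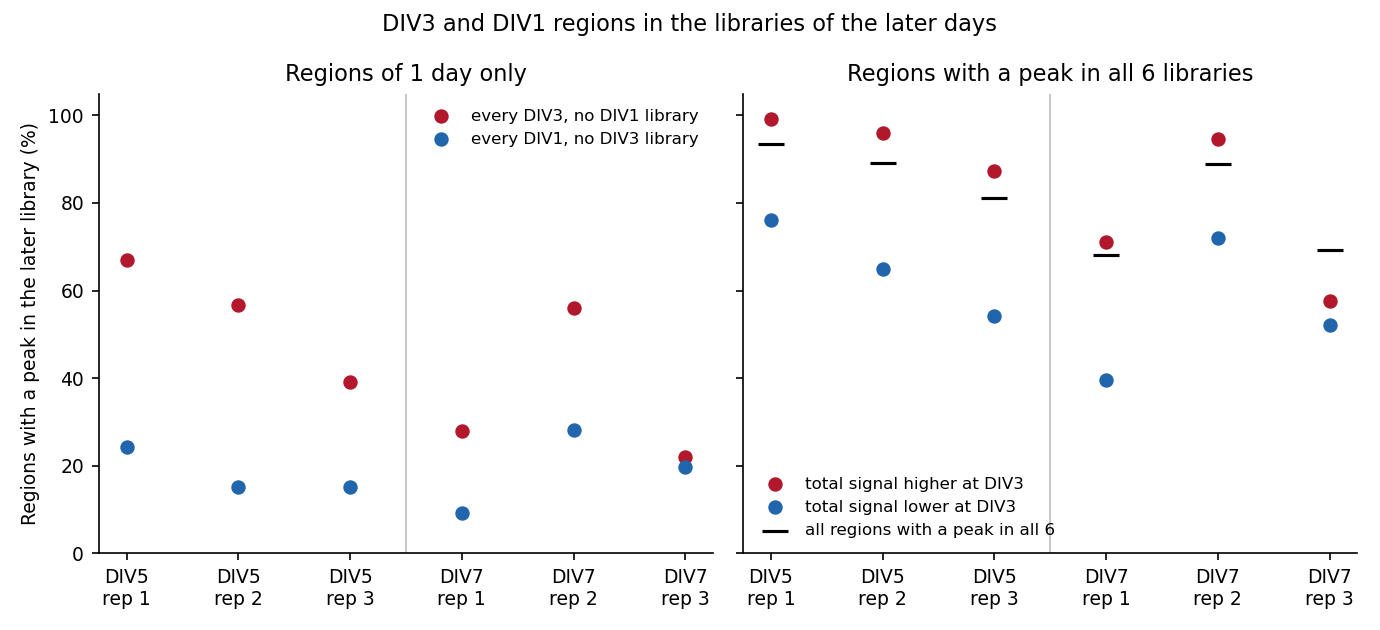
Share of regions (vertical axis, percent) that hold a peak in each DIV5 and DIV7 library. Left, regions with a peak in every DIV3 and no DIV1 library (red) lie above those with a peak in every DIV1 and no DIV3 library (blue) in all 6 libraries, from 66.9 against 24.2% to 22 against 19.6%. On the right are the regions called by total signal, with black dashes for all 23117 shared regions.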

How the data were processed

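CUT&RUN peak lists of 6 libraries were used, 3 of DIV3 and 3 of DIV1 cultures. DIV5 and DIV7 libraries were used for their peaks and for 1 alternative. The deposited lists, per the labels on build mm10 (GRCm38), hold for each peak the total and the maximum signal, which the authors did not scale to depth as far as the values show: totals are whole multiples of 50 or 51, taken here as the read length. The submitters' processing notes name SEACR 1.3, STAR 2.7.2b, bedtools 2.25.0, Trimmomatic 0.38, FastQC, DESeq2 1.36.0 and MACS2 2.1, with no role. The sources used here give neither the threshold nor any control track.

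Peaks of the 6 lists were merged where they overlapped by 1 bp or more. Within each library the signal was ranked over the regions with a peak in all 6 lists and turned into normal scores, which were compared with limma 3.58.1 in R 4.3.3 (Benjamini-Hochberg, threshold 0.05). Ranks are relative, so a change common to all regions is not seen. A percentile is the place of a region in its library. Peaks per gene were counted over the RefSeq span plus 5 kb, per 10000 peaks, and compared with limma with an intensity trend on log2(value + 0.5). Library measures were compared by exact permutation over 20 assignments, whose smallest p is 0.1. P-values measure the spread between these libraries. Scripts ran in Python 3.11.15 and were tested on simulated data.

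The text names the 10 regions per direction with the largest difference among those called by maximum signal, 5 more per direction by total signal, the 6 strongest regions per direction of 1 day alone, the 8 genes per direction with the largest difference, the Zic genes, and 2 genes of smallest p per list. Not all of these are printed, some genes are not reported here, and other names are said to be chosen after their values were seen. The members and the 19 gene lists, with 306 genes of which 305 are in the gene table, were chosen with earlier results of these data known. Alternatives changed the scale, the regions, the windows, the pseudocount, the libraries and the covariates. A region's own sequence was not used here, since promoter sequences alone were at hand.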

Additional observations from a re-analysis of the deposited data

How the results depend on the processing

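Calls by maximum signal (108 regions) numbered 17 with a peak in at least 4 of 6 lists, 40 with all 12 libraries (35 higher, 5 lower) and 0 with read length as a term or log2 reads in peaks as a covariate, and 0 to 5 with 1 library left out. On a log2 scale 114 were higher and 28 lower (80.3% higher, beside 69.4%). Calls by total signal (605 regions) numbered 120 with all 12 libraries (91 higher, 29 lower), 0 with read length, with depth or with the replicate block, and 0 to 48 with 1 library left out. Genes (113) numbered 24 with a pseudocount of 0.1 (13 higher, 11 lower), 0 with at least 1 peak as the filter, 672 by reads scaled to the reads in peaks, whose median was -0.16 beside -0.05, 0 with read length, and 0 to 305 with 1 library left out. Regions of DIV3 alone numbered 774 and those of DIV1 alone 1164 by the maximum-signal parts of peaks, and 1661 to 3219 and 2683 to 4418 with 1 library left out. The difference in the number of peaks, 81.7, lay between -3284 and 5820 with 1 library left out, and was -2138, -1267, -3284 and -2291 without DIV3 replicates 2 and 3 and DIV1 replicates 1 and 3. The causes were not tested.

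2 alternatives were chosen after seeing the data. The 51-base libraries alone gave 0 calls by maximum signal, total signal and genes, with 1 DIV3 library assumed to vary like those of DIV1, and 13720 regions of DIV3 alone and 4065 of DIV1 alone. Depth as a covariate gave 11 genes.

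Replicate numbers were not taken to pair the samples, since they are not said to mark a litter or day. Same-numbered libraries correlated in their deviations at 0.0382 to 0.0814 by maximum signal, 0.0551 to 0.162 by total signal and 0.0528 to 0.207 by genes, all positive. Every sample correlated best with its own number, except DIV3 replicate 3 by genes (0.0674 with DIV1 replicate 2), a hint from the data and not from the design. With the replicate block 83 regions passed by maximum signal, 0 by total signal and 554 genes. The number of calls thus depends on whether the libraries are paired, which the labels do not settle.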

Other observations

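Gene families not described above, chosen after their values were seen, differed among their members in Zic1/2 peaks per gene. Of the TEAD factors, partners of Yap1, Tead2 had 1, 0 and 0 peaks at DIV3, against 5, 4 and 5 at DIV1 (-1.07 ± 0.17, limma adjusted p = 0.0185). By scaled reads Tead2 did not pass (limma adjusted p = 0.0986), and it reached the minimum for a test through DIV1. Tead3 had 2, 1 and 2 at DIV3, against 4, 7 and 5 at DIV1 (limma adjusted p = 0.0483), and Tead4 had 4, 3 and 5 at DIV3, against 7, 5 and 5 at DIV1, which did not pass (limma adjusted p = 0.480). Among neurotrophin receptors Ntrk3, the receptor of neurotrophin-3 in granule neurons, had 29, 26 and 33 at DIV3, against 11, 19 and 14 at DIV1 (0.87 ± 0.19, limma adjusted p = 0.0433). Ntrk2 had 26, 24 and 20 at DIV3, against 17, 20 and 24 at DIV1, with overlap of the days.

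Of the Wnt effectors, Tcf7 had 0, 0 and 1 peaks at DIV3, against 4, 5 and 2 at DIV1 (limma adjusted p = 0.0398), and Tcf7l2 had 3, 1 and 1 at DIV3, against 6, 6 and 6 at DIV1 (limma adjusted p = 0.0447). By scaled reads neither passed (limma adjusted p = 0.146 and 0.0543). Lef1 had 1, 2 and 3 at DIV3, against 6, 5 and 6 at DIV1, and did not pass (limma adjusted p = 0.0563). Of the IgLON relatives of Negr1, Ntm had 80, 83 and 81 at DIV3, against 48, 52 and 41 at DIV1 (0.75 ± 0.14, limma adjusted p = 0.0319), and Opcml had 57, 52 and 53 at DIV3, against 27, 39 and 31 at DIV1 (limma adjusted p = 0.0505). Iglon5 had 2, 3 and 4 at DIV3, against 4, 3 and 3 at DIV1.

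Some genes were nearest to several called regions, a count with no test that also depends on how many regions a gene has. By total signal 14 genes were nearest to at least 2 higher regions, of 300 nearest to any, and Ablim1, Auts2 and Ntm to 3 each, of 8, 33 and 23 tested regions nearest to them. Auts2 also had 1 region called lower. For lower regions 21 of 264 genes had at least 2, with 4 of 37 in Gse1, a partner of chromatin enzymes, and 3 of 7 in Slit1, a guidance cue.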
